A study of Rattus norvegicus with 10 samples.

Results

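Immediate early response genes were examined in rat liver as 10 named genes: Fos, Jun, Junb, Egr1, Atf3, Ier2, Dusp1, Myc, Zfp36 and Btg2. The value of a gene was the sum over its isoforms in the deposited table that match a reference transcript (class code =), are contained in it (c), share a junction with it (j) or overlap it on the same strand (o). Of the 10 genes, 9 had such isoforms, among 20226 genes formed in this way, and all 9 were among the 11139 genes tested, which had a mean of at least 1 FPKM (fragments scaled to transcript length and library size). The exception was Ier2, whose 1 row carries class code e, a single exon that also reaches into a reference intron. Its values are given apart. Fos passed the filter only through the SG livers (mean 1.66 FPKM in SG and 0.838 FPKM in SHAM); without the filter its log2 fold change was 0.86, against 0.87 with it.

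The 2 groups were livers of wild type Wistar rats 3 months after sleeve gastrectomy (SG, 5 libraries) and livers of wild type Wistar rats after a sham operation (SHAM, 5 libraries), for which the labels give no time. Both groups were diabetic: they had eaten a diet with 60% of calories as fat for 4 weeks and then received 35 mg/kg streptozotocin, which destroys pancreatic beta cells, after a 16 h fast. Rats with fasting glucose above 16.7 mmol/L 3 days later were taken as diabetic, and were matched for body weight and randomised. The labels name no individual rats, so every p-value here reflects variation among these libraries, which may be technical in part. Where livers are counted below, each stands for a library. The operation cannot be told apart from any difference in time after it. The hour of sampling and the feeding state at sampling are not given in the sources used here. Depth, as the sum of estimated counts, was 77617460 to 92110190 in the SG libraries and 65824088 to 85520959 in the SHAM libraries. As a check of the tissue, 7 hepatocyte markers summed to 23470 to 36820 FPKM in the SG libraries and 22520 to 32800 FPKM in the SHAM libraries.

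Immediate early genes are switched on within minutes of a stimulus such as a growth factor, a cytokine or cell stress, without the need for new protein, and most of their mRNAs decay fast. In liver they are known for their induction after partial hepatectomy and during handling or isolation of the tissue. Several encode transcription factors (Fos, Jun, Junb, Atf3, Egr1 and Myc), and others end the response: Dusp1 removes phosphate from MAP kinases, Zfp36 binds AU-rich elements and promotes mRNA decay, and Btg2 recruits the CCR4-NOT deadenylase.

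Over the 10 libraries the median level per length was highest for Dusp1 (45.2 FPKM) and Zfp36 (41.7 FPKM), followed by Jun (27.6 FPKM), Junb (17.7 FPKM) and Btg2 (12.6 FPKM). Myc (5.84 FPKM) and Egr1 (5.57 FPKM) lay near the median of all tested genes, which was 5.46 FPKM, and Atf3 (2.80 FPKM) and Fos (0.867 FPKM) lay below it. The ranges over libraries overlapped between all neighbours in this order. Jun and Fos, the best known partners in the AP-1 dimer, did not overlap: the lowest Jun value was 20.4 FPKM and the highest Fos value 3.35 FPKM.

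Serum response elements and cAMP response elements are known routes by which growth factor and cAMP signals reach promoters of this class. RefSeq promoters (build GRCr8, 250 bases before the transcription start) were found for 6 of the 10 genes: Zfp36, Dusp1, Btg2, Egr1, Junb and Ier2. The CArG box, the core of the serum response element bound by SRF, was found in 2 of the 6 (Egr1 and Zfp36) and in 1.497% of 33469 rat promoters of the same length. The full cAMP response element, TGACGTCA, was found in 3 of the 6 (Dusp1, Btg2 and Ier2) and in 1.59% of all promoters. The promoters of Egr1, Zfp36, Dusp1 and Btg2 are printed 5′ to 3′, up to the base before the start. They show the 2 kinds of element. The annotated isoform of Egr1 had a negative correlation with most other members across the livers, and 0 of its 8 pairs passed. Any relation of these elements to how the members varied across the livers was not tested. Capitals mark CArG boxes and cAMP response elements.
Egr1: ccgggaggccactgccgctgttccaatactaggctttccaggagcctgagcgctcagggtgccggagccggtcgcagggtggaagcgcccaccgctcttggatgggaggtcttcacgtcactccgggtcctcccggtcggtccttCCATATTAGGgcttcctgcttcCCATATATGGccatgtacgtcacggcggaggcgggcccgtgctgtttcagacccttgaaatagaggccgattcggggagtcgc
Zfp36: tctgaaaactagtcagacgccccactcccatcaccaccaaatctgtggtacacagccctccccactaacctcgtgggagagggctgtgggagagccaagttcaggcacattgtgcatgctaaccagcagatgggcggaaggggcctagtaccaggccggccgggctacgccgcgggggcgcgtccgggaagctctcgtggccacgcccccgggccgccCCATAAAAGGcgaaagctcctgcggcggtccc
Dusp1: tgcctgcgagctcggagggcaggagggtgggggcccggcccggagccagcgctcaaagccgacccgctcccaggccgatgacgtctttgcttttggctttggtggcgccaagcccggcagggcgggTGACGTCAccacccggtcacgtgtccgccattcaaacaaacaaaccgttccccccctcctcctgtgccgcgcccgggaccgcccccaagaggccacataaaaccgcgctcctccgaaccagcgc
Btg2: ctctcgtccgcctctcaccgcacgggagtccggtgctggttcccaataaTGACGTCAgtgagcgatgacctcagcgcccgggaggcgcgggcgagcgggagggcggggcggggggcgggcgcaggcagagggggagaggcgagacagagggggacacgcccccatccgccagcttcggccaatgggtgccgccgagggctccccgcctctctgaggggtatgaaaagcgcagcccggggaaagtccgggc
These lie at chr18:26736828-26737077 on the plus strand, chr1:92799109-92799358 on the minus strand, chr10:17184603-17184852 on the plus strand and chr13:48087691-48087940 on the minus strand. Egr1 has 2 CArG boxes, from 105 to 96 and from 83 to 74 bases before the start, and Zfp36 has 1, from 32 to 23 bases before it, which overlaps a GC box. The cAMP response element of Dusp1 spans 124 to 117 bases before the start, that of Btg2 201 to 194, and that of Ier2 66 to 59. Searches on both strands for other elements found the TATA box (TATAAA) in Junb (12.9% of all promoters), the GC box (GGGCGG) in Btg2, Dusp1 and Zfp36 (30.5%), the E-box (CACGTG) in Dusp1 (5.59%) and the AP-1 site (TGANTCA) in none of the 6 (6.34%). A match is a description of the letters and not evidence of binding.

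Among the AP-1 subunits, Fos and Junb were highest in the library SG 2. Fos, which pairs with a Jun protein to form AP-1 (chromosome 6, 109300433 to 109303299, Rnor_6.0), had 0.895, 3.35, 0.776, 1.24 and 2.05 FPKM in SG 1 to SG 5, and 0.646, 0.609, 0.839, 0.684 and 1.41 FPKM in SHAM 1 to SHAM 5. SG 2 and SG 5 lay above every SHAM library, and the groups overlapped. Over 5 libraries a group, the mean was 1.66 FPKM (SD 1.064) for SG and 0.838 FPKM (SD 0.332) for SHAM. Its log2 fold change was 0.87 ± 0.42 (SE, 95% confidence interval -0.07 to 1.81), and it did not pass edgeR's quasi-likelihood test (adjusted p = 0.991). It was 0.43 without SG 2 and 1.15 without SHAM 5. Fos rests on few counts, 115 to 542 per library in SG and 74 to 224 in SHAM.

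Junb, a Jun family subunit that activates less strongly than Jun (chromosome 19, 26092974 to 26094756), had 13.5, 47.3, 15.7, 17.6 and 21.6 FPKM in SG 1 to SG 5, and 15.5, 11.6, 19.0, 17.9 and 18.6 FPKM in SHAM 1 to SHAM 5. The value of SG 2 was more than that of any other library, while the other SG libraries lay among or close to the SHAM libraries. Its log2 fold change of 0.38 ± 0.33 (SE) stood at -0.07 without SG 2, and edgeR's adjusted p was 0.991. Jun itself (chromosome 5, 114011189 to 114014277) had 34.2, 48.3, 20.4, 28.7 and 44.3 FPKM in SG 1 to SG 5, and 24.6, 24.2, 24.2, 35.9 and 26.4 FPKM in SHAM 1 to SHAM 5. Jun was high in SG 2, SG 5 and SHAM 4 and lowest in SG 3, so the groups overlapped. It averaged 35.2 ± 11.4 FPKM in SG livers and 27.1 ± 4.99 FPKM in SHAM livers (SD, n = 5 each), with a log2 fold change of 0.27 ± 0.22 (SE, edgeR adjusted p = 0.991) that was 0.12 without SG 2, 0.40 without SG 3 and 0.41 without SHAM 4.

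Atf3, a stress-induced member of the ATF/CREB family that can pair with Jun proteins (chromosome 13, 109817728 to 109849632), had the largest within-group SD on the log2 scale, while the ratio of the highest to the lowest FPKM was larger for Egr1 (13.3) than for Atf3 (10.7). Atf3 had 2.66, 11.1, 1.29, 1.88 and 13.8 FPKM in SG 1 to SG 5, and 1.999, 1.47, 2.94, 8.75 and 5.62 FPKM in SHAM 1 to SHAM 5. Libraries of both groups were high (SG 2, SG 5, SHAM 4 and SHAM 5) and libraries of both groups were low. The log2 fold change was 0.37 ± 0.79 (SE, 95% confidence interval -1.38 to 2.13, edgeR adjusted p = 0.993), and it stood at -0.27 without SG 5 and 0.92 without SHAM 4. Most Atf3 counts lay in assembled isoforms of class j and o, on average 92.1% ± 5.89 in SG and 88.2% ± 10.7 in SHAM (SD, n = 5 each), the longest being 7994 bases against 1888 and 2756 bases for the annotated transcripts. With annotated isoforms alone Atf3 did not reach the mean of 1 FPKM.

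**Figure D1:**
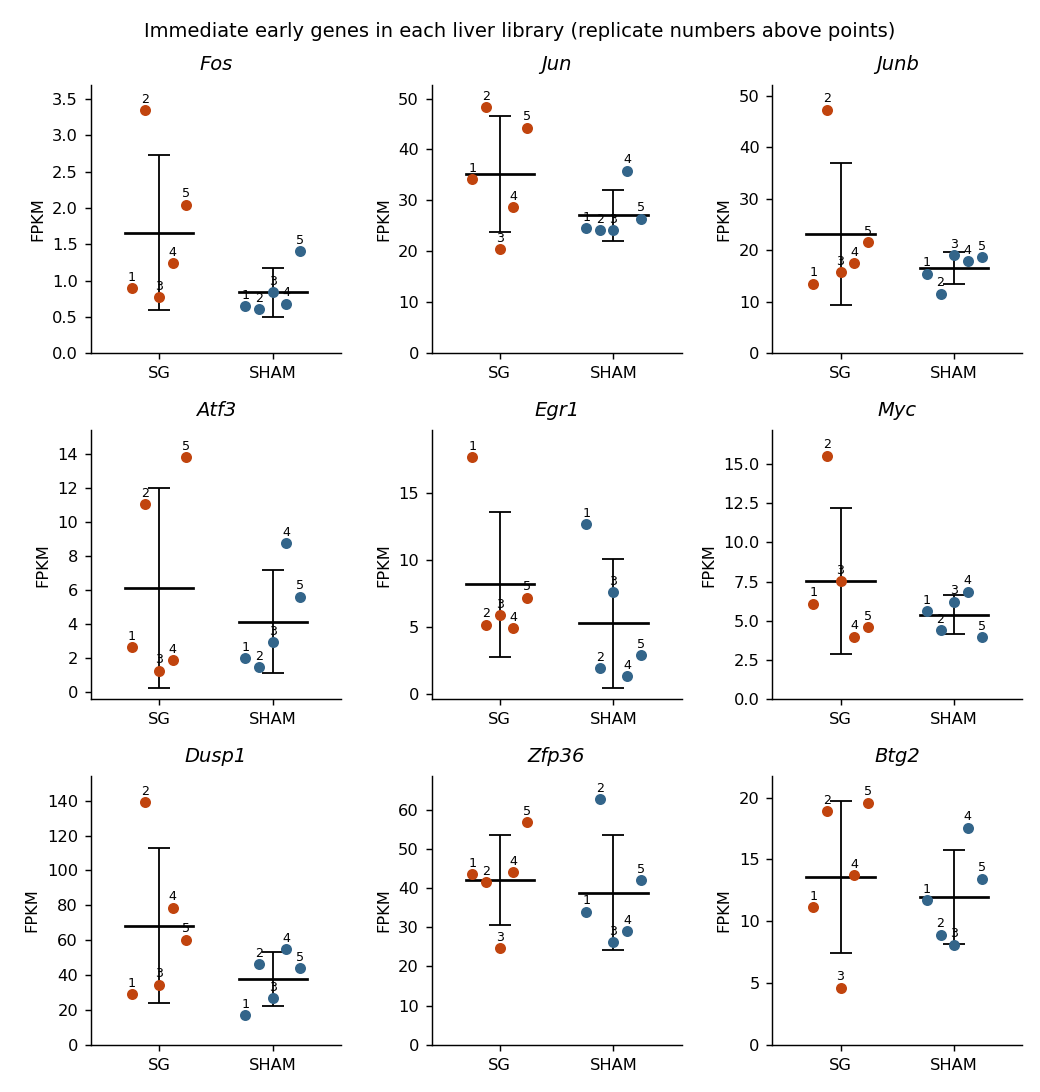
FPKM (y axis, linear, its own scale in each panel) of 9 immediate early genes in each library, SG left and SHAM right. Points are libraries with their replicate numbers, bars are the mean and whiskers the SD (n = 5). SG 2 is the highest point for Fos, Jun, Junb, Myc and Dusp1, and the groups overlap in every panel.

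Egr1, a zinc finger transcription factor induced through SRF (chromosome 18, 27657628 to 27661429), followed another order of libraries. Its annotated isoform had 17.7, 5.21, 5.93, 4.93 and 7.22 FPKM in SG 1 to SG 5, and 12.7, 1.98, 7.62, 1.33 and 2.93 FPKM in SHAM 1 to SHAM 5. The same-numbered libraries SG 1 and SHAM 1 were the highest of their groups, and SG 2 was not high. Egr1 averaged 8.20 ± 5.39 FPKM in SG livers and 5.31 ± 4.80 FPKM in SHAM livers (SD, n = 5 each), with a log2 fold change of 0.55 ± 0.61 (SE, edgeR adjusted p = 0.991), which was 0.0496 without SG 1, 1.10 without SHAM 1, 0.33 without SHAM 2 and 0.30 without SHAM 4.

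A further Egr1 row of class e covers the same 3802 bases as 1 exon, and so keeps the 672 bases that are spliced out of the annotated isoform. It had 8.83, 2.35, 7.93, 9.41 and 16.5 FPKM in SG 1 to SG 5, and 10.6, 1.05, 6.75, 7.20 and 9.71 FPKM in SHAM 1 to SHAM 5. SG 5 was the highest and SHAM 2 the lowest, so the spliced and the intron-holding rows put the livers in different orders. The intron-holding row took 55.7% ± 18.0 of Egr1 counts in SG and 61.6% ± 20.6 in SHAM (SD, n = 5 each), from 35.4% in SG 2 to 86.8% in SHAM 4. With this row added, the log2 fold change of Egr1 was 0.36 ± 0.48 (SE, edgeR adjusted p = 0.994). Reads were shared between the 2 rows by the assembler's estimate.

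Myc, which drives ribosome production and growth (chromosome 7, 102586313 to 102591240), had 6.09, 15.5, 7.52, 3.99 and 4.604 FPKM in SG 1 to SG 5, and 5.59, 4.38, 6.22, 6.85 and 3.94 FPKM in SHAM 1 to SHAM 5. SG 2 stood above the other 9 libraries, which lay between 3.94 and 7.52 FPKM. The log2 fold change was 0.40 ± 0.36 (SE, edgeR adjusted p = 0.991) with all libraries, -0.0503 without SG 2 and 0.11 with annotated isoforms alone. Myc rows of class j held 67.5% ± 4.77 of its counts in SG and 59.3% ± 13.7 in SHAM (SD, n = 5 each), and the ranges overlapped.

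Ier2, a small nuclear protein of the immediate early class (chromosome 19, 25772898 to 25775726), had 6.02, 0.323, 5.66, 8.97 and 11.8 FPKM in its class e row in SG 1 to SG 5, and 6.37, 4.35, 0.372, 6.42 and 6.20 FPKM in SHAM 1 to SHAM 5. The row was near 0 in 1 library of each group, SG 2 and SHAM 3, and between 4.35 and 11.8 FPKM in the other 8. In a fit over isoforms of every class code its log2 fold change was 0.37 ± 0.80 (SE, edgeR adjusted p = 0.994). The row is 2829 bases long and no reference-matching row of the gene was used here, so it is not known from these values how much of the Ier2 mRNA it holds.

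Of the genes that end the response, Dusp1 and Zfp36 had the highest median levels and Btg2 came after Jun and Junb. Dusp1, a phosphatase of p38, JNK and ERK (chromosome 10, 16970626 to 16973418), had 29.2, 139, 34.6, 78.7 and 60.3 FPKM in SG 1 to SG 5, and 17.1, 46.5, 26.8, 54.8 and 43.9 FPKM in SHAM 1 to SHAM 5. SG 2, SG 4 and SG 5 were above every SHAM library, while SG 1 and SG 3 lay within the SHAM range. Dusp1 averaged 68.4 ± 44.3 FPKM in SG livers and 37.8 ± 15.4 FPKM in SHAM livers (SD, n = 5 each). Its log2 fold change was 0.73 ± 0.45 (SE, 95% confidence interval -0.26 to 1.73, edgeR adjusted p = 0.991), and 0.32 without SG 2.

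The table holds 4 Dusp1 isoforms with the same ends: the annotated one of 1936 bases, and 3 of class j of 2309, 2533 and 2569 bases that splice out 484, 260 and 224 bases in place of 857, and so keep part of the introns. Those 3 held 70.9% ± 8.08 of Dusp1 counts in SG and 71.2% ± 2.27 in SHAM (SD, n = 5 each). The lowest share, 57.9%, was in SG 2, the liver with the most Dusp1, and the other 9 libraries ran from 68.8% to 78.0%.

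Zfp36, also known as tristetraprolin (chromosome 1, 85380088 to 85382569), had 43.6, 41.4, 24.7, 44.0 and 56.9 FPKM in SG 1 to SG 5, and 34.0, 62.7, 26.2, 29.1 and 41.95 FPKM in SHAM 1 to SHAM 5. Its highest library was SHAM 2 and its lowest SG 3. The log2 fold change of 0.03 ± 0.24 (SE, edgeR adjusted p = 0.998) had a 95% confidence interval from -0.51 to 0.57, which is 0.703-fold to 1.48-fold. Its sign turned without SG 4, SG 5, SHAM 1, SHAM 3 or SHAM 4, within -0.07 to 0.24 over all 10 fits that left out 1 library.

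Btg2, which is also a p53 target (chromosome 13, 50913180 to 50916982), had 11.1, 18.9, 4.64, 13.7 and 19.6 FPKM in SG 1 to SG 5, and 11.7, 8.92, 8.12, 17.6 and 13.5 FPKM in SHAM 1 to SHAM 5. SG 2, SG 5 and SHAM 4 were high and SG 3 was low. The log2 fold change was 0.07 ± 0.35 (SE, edgeR adjusted p = 0.997), and the sign turned without SG 2, SG 5, SHAM 2 or SHAM 3 (-0.09 to -0.03).

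The study compared sleeve gastrectomy with sham surgery. In edgeR 0 of the 9 tested members passed at an adjusted p of 0.05, as did 0% of all tested genes, and 0 members had an unadjusted p under 0.05, where 4.53% of all tested genes did. DESeq2 called 0 members against 0.162% of genes, and Fos alone had an unadjusted p under 0.05 there (DESeq2 adjusted p = 0.874), against 5.65% of genes. Limma on log2(FPKM + 0.5) called 0 members and 0% of genes, with 0 members and 6.41% of genes at an unadjusted p under 0.05. No member had FPKM ranges that did not overlap between the groups, which 1.34% of genes had. All 9 log2 fold changes were positive (median 0.38), where 47.4% of all genes were positive (median -0.01). Several members varied together across these libraries (median r 0.42 over 36 pairs), so the 9 signs are not independent. Without SG 2, 6 of 9 were positive (median 0.11), and without SG 5, 6 of 9 (median 0.43).

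**Figure D2:**
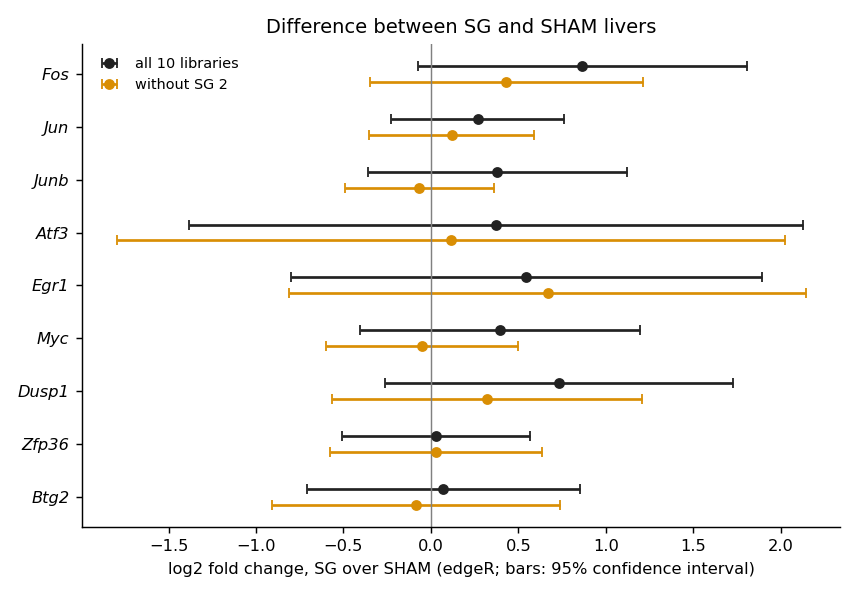
Log2 fold change of SG over SHAM (x axis) for 9 immediate early genes in edgeR, with 95% confidence intervals as bars. Black points use all 10 libraries and orange points leave out SG 2. Each interval includes 0, and the values for Junb, Myc and Btg2 lie below 0 without SG 2.

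The members varied widely within both groups. By CPM, estimated counts scaled to library sizes by trimmed means (TMM), SG 2 was the highest library for 5 of the 9 members (Fos, Jun, Junb, Dusp1 and Myc) and among the top 3 for 7, while SG 5 and SHAM 4 were among the top 3 for 5 each. SG 3 and SHAM 2 were each the lowest for 3 members. The within-group SD of log2(CPM + 1) had a median of 0.59 over the members and 0.23 over all tested genes. It was largest for Atf3 (1.401, at the 98.8th percentile of tested genes), Egr1 (1.02) and Dusp1 (0.81), and smallest for Jun (0.38, at the 77.8th percentile). For 5 of the 9 members the SD exceeded the 90th percentile of all tested genes, which was 0.58.

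**Figure D3:**
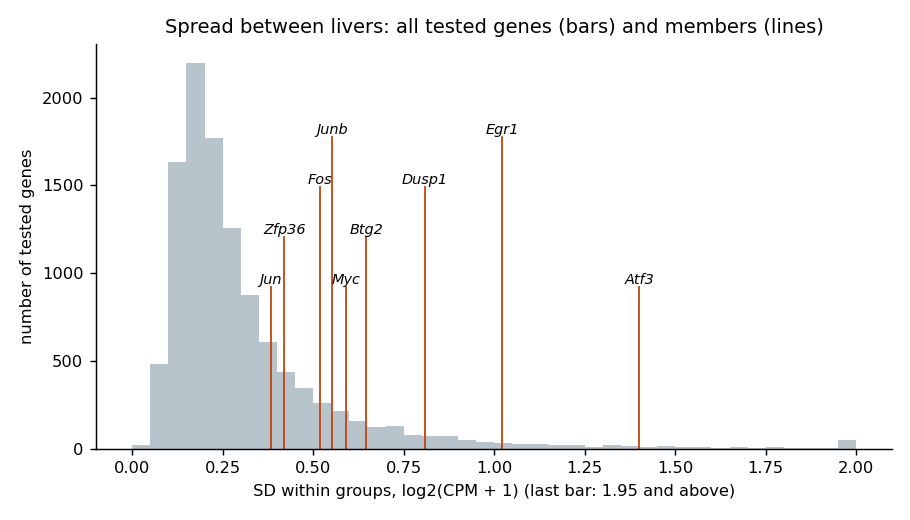
Number of tested genes (y axis) by their within-group SD of log2(CPM + 1) over the 10 libraries (x axis, bars). Lines mark the members at heights chosen for legibility. All members lie to the right of the peak, from Jun at 0.38 to Atf3 at 1.401.

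In SG 2 markers of some other cell types were high as well. The 8 stellate cell and fibroblast markers summed to 96.0 FPKM there, against 34.7 to 48.3 FPKM in the other SG livers and 26.1 to 53.3 FPKM in SHAM, and 7 of the 8 were highest in SG 2. The 9 macrophage markers summed to 516 FPKM in SG 2, against 220 to 270 FPKM in the other SG livers and 189 to 444 FPKM in SHAM, with 6 of 9 highest in SG 2. No marker of these lists was at 0 in SG 2. Of 5 neutrophil markers with a row, Mpo and Elane were at 0 in SG 2, and the list summed to 3.32 FPKM there, 1.04 to 2.70 FPKM in the other SG livers and 0.196 to 1.70 FPKM in SHAM. Of these 5, 1 was at 0 in every library, 1 was highest in SG 2, and 0 reached the mean of 1 FPKM. B and plasma cell markers summed to 66.7 FPKM in SG 2, 20.4 to 30.7 FPKM in the other SG livers and 6.07 to 25.3 FPKM in SHAM, and endothelial markers to 94.1 FPKM in SG 2, 63.6 to 87.4 FPKM in the other SG livers and 50.3 to 84.6 FPKM in SHAM. Of those with a row, 4 of 5 B and plasma cell markers and 3 of 6 endothelial markers were highest in SG 2. The hepatocyte sum of SG 2, 23470 FPKM, was the lowest of the SG livers and lay within the SHAM range of 22520 to 32800 FPKM. Markers of cholangiocytes (4.36 FPKM), red blood cells (49.3 FPKM) and T and NK cells (3.16 FPKM) in SG 2 lay within the range of the other 9 livers. The part of these cells in the values of Fos, Jun, Junb, Dusp1 and Myc was not tested, and in bulk liver more cells of a type cannot be told apart from more RNA per cell.

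Several members varied together over the livers. Over the 36 pairs of the 9 members the median Pearson r of log2(CPM + 1) across 10 libraries was 0.42, beside -0.0009 over all pairs of tested genes, and 44.4% of member pairs had r of at least 0.5, beside 9.06% of all pairs. The closest pairs were Fos and Junb (r = 0.86, adjusted permutation p = 0.0451; rho = 0.71, adjusted permutation p = 0.161), Jun and Btg2 (r = 0.85, adjusted permutation p = 0.0446; rho = 0.85, adjusted permutation p = 0.0416), and Jun and Atf3 (r = 0.83, adjusted permutation p = 0.0451; rho = 0.85, adjusted permutation p = 0.0416), adjusted over 36 pairs. These were the 3 pairs that passed by Pearson's r, and by Spearman's rho Atf3 and Btg2 (rho = 0.84) passed in place of Fos and Junb. Without the 2 libraries farthest from the median of the first gene, r was 0.60 for Fos and Junb, 0.80 for Jun and Btg2 and 0.81 for Jun and Atf3. Within SG and within SHAM, r was 0.92 and 0.87 for Jun and Btg2, 0.85 and 0.90 for Jun and Atf3, and 0.94 and 0.67 for Fos and Junb. Without SG 2 the median r of the 36 pairs was 0.30, and 19.4% of them had r of at least 0.5, beside 10.2% of all pairs. Of the 36, 13 had a negative r without SG 2, against 8 with all libraries, and 0 passed. Likewise 0 pairs passed without SG 3, SG 4, SG 5, SHAM 1, SHAM 2 or SHAM 5.

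By its annotated isoform Egr1 stood apart, with a negative r for 6 of its 8 pairs and a median r of -0.17. The intron-holding row of Egr1 was outside these sums. It took on average 55.7% of Egr1 counts in SG and 61.6% in SHAM and put the livers in another order. Correlations of Egr1 with that row added were not computed. The lowest r of the annotated isoform was with Dusp1 (r = -0.51, adjusted permutation p = 0.268; rho = -0.66, adjusted permutation p = 0.161). Within SG and within SHAM that r was -0.72 and -0.95. Zfp36 and Myc were also apart from each other (r = -0.48, adjusted permutation p = 0.334; rho = -0.76, adjusted permutation p = 0.137). Their r was -0.88 without SG 2, -0.37 within SG and -0.86 within SHAM.

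**Figure D4:**
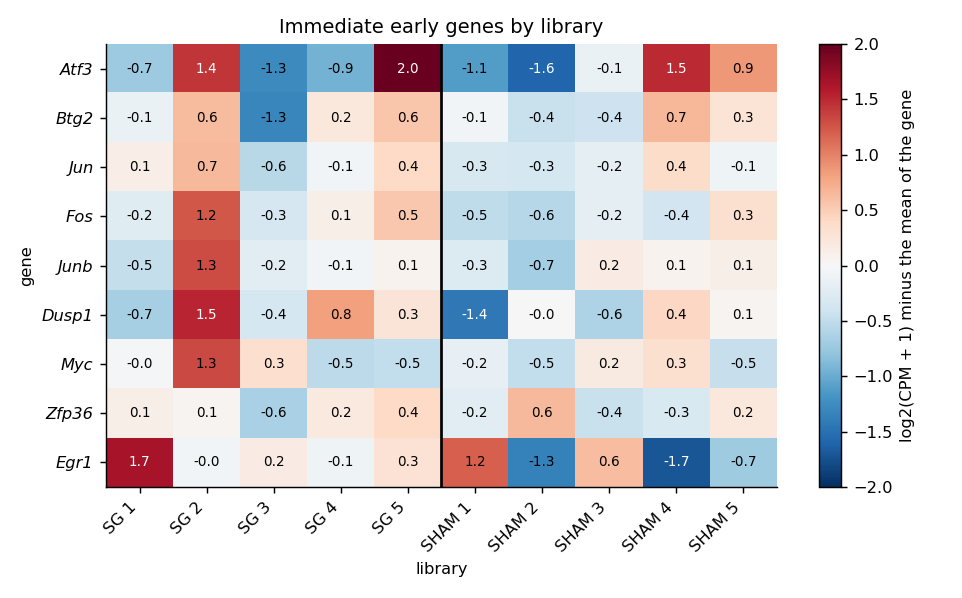
Centred log2(CPM + 1) of 9 immediate early genes (rows) in each library (columns, SG left of the line and SHAM right of it), with the value in each cell and red above and blue below the mean of the gene. Atf3, Btg2 and Jun are high in SG 2, SG 5 and SHAM 4, Fos, Junb, Dusp1 and Myc are highest in SG 2, and Egr1 is high in SG 1 and SHAM 1.

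The Atf3, Jun and Btg2 order of livers ran opposite to that of the clock gene Per1, itself an immediate early gene in other settings. Per1 had 5.75, 2.30, 9.47, 8.19 and 1.898 FPKM in SG 1 to SG 5, and 7.07, 13.9, 6.80, 3.52 and 4.55 FPKM in SHAM 1 to SHAM 5. The 4 livers with the least Per1, SG 5, SG 2, SHAM 4 and SHAM 5, were the 4 with the most Atf3. This relation was examined after the values had been seen, for Per1 with each of the 9 members over 10 libraries. The p-values are adjusted over those 9 relations alone, take no account of the choice of Per1, and are too small to that extent. Pearson's r with Per1 was -0.92 for Atf3 (adjusted permutation p = 0.00063; rho = -0.93, adjusted permutation p = 0.00396), -0.87 for Jun (adjusted permutation p = 0.00351; rho = -0.87, adjusted permutation p = 0.00795) and -0.75 for Btg2 (adjusted permutation p = 0.0259; rho = -0.85, adjusted permutation p = 0.00795). Fos (r = -0.75, adjusted permutation p = 0.0259) and Junb (r = -0.68, adjusted permutation p = 0.049) passed by Pearson's r and not by rho (adjusted permutation p = 0.135 and 0.173). For the annotated isoform of Egr1, r was -0.05 (adjusted permutation p = 0.892).

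Without SG 2 and SG 5, the 2 livers farthest from the median of Per1, r was -0.86 for Atf3, -0.77 for Jun, -0.69 for Btg2, -0.34 for Fos and -0.60 for Junb, so the relation of Fos rests on those livers. Within SG and within SHAM, r with Per1 was -0.99 and -0.90 for Atf3, -0.88 and -0.81 for Jun, and -0.76 and -0.89 for Btg2, with 5 livers in each group. Among all 11139 tested genes Atf3 had the lowest r with Per1 over these 10 livers, and Jun was among the 9 lowest, which describes these libraries. The clock output gene Dbp fell into separate sets of livers (81.1 FPKM in SG 3 and 83.6 FPKM in SHAM 2, 21.8 FPKM in SG 1, 22.7 FPKM in SHAM 1 and 20.5 FPKM in SHAM 3, and 2.34 to 4.63 FPKM in the other 5), and no correlation is given for it. The part of the hour of sampling in the values of these genes was not tested.

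**Figure D5:**
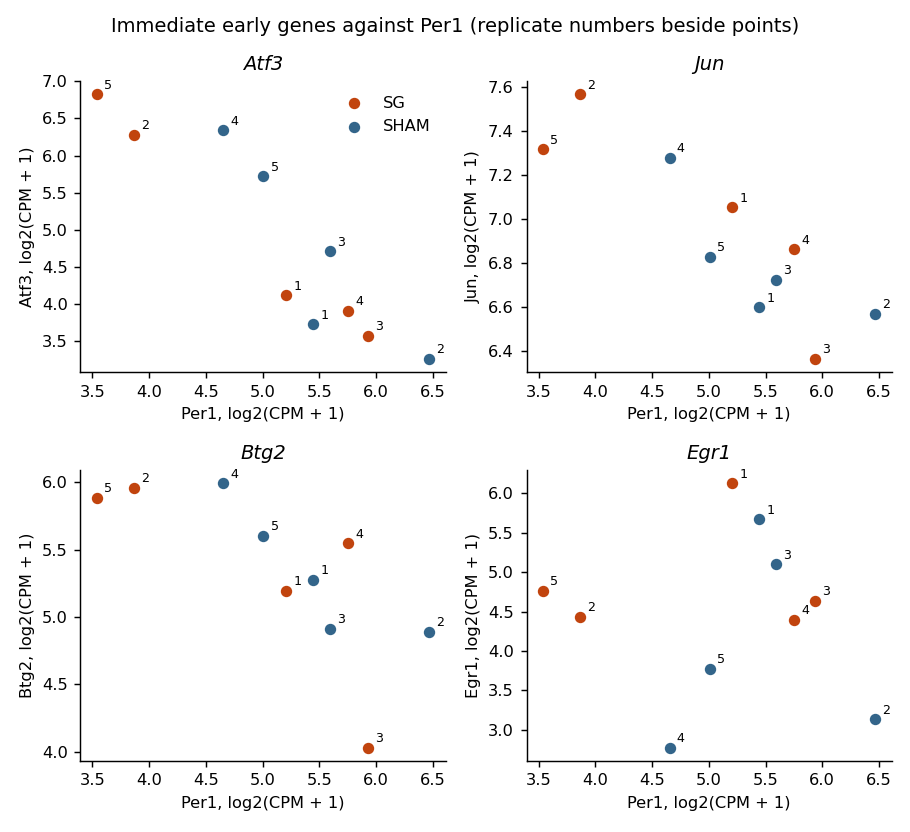
Log2(CPM + 1) of Atf3, Jun, Btg2 and Egr1 (y axes) against Per1 (x axes) in each library, SG orange and SHAM blue, with replicate numbers. Atf3 falls along Per1 in both groups (r = -0.92 over 10 libraries), and the annotated isoform of Egr1 shows no such order (r = -0.05).

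Relatives of the members outside the named 10 were counted in the same fit, from lists chosen with earlier results of these data known. No gene of any of these lists passed edgeR's test (0 called, as for 0% of all genes). The counts of positive values and of unadjusted p-values under 0.05 that follow stand beside 47.4% and 4.53% of all tested genes. List medians were also taken with 1 library left out in turn. Only those of the further AP-1 subunits (-0.27 to -0.06) and of the other immediate early transcription factors (-0.55 to -0.02) kept their sign. Of 5 tested further AP-1 subunits all had a negative log2 fold change (median -0.18), among them Fosl2 (-0.23 ± 0.24 SE) and Jund (-0.28 ± 0.31 SE). Fosl2 was -0.47 without SG 2, -0.12 without SG 1, -0.13 without SG 3 and -0.0155 with every class code. Jund was -0.0470 without SHAM 4, -0.14 without SG 2, -0.17 without SHAM 3, -0.42 without SG 5 and -0.45 without SHAM 1. Fosl2 had 4.88 FPKM in SG 2, 2.03 to 3.46 FPKM in the other SG livers and 3.01 to 3.49 FPKM in SHAM.

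Of 9 tested other immediate early transcription factors, 3 had a positive and 6 a negative log2 fold change. Cebpb, an acute phase and gluconeogenic regulator, averaged 12.9 ± 3.42 FPKM in SG livers and 20.2 ± 6.72 FPKM in SHAM livers (SD, n = 5 each), with a log2 fold change of -0.74 ± 0.27 (SE, unadjusted p under 0.05, edgeR adjusted p = 0.991). Klf10, a TGF beta inducible repressor, stood at 0.58 ± 0.31 (SE), and at 0.29 with annotated isoforms alone. Of 19 tested other immediate early effectors, 13 had a positive value and 2 passed without adjustment. They were the growth arrest gene Gadd45a (0.75 ± 0.30 SE, unadjusted p under 0.05, edgeR adjusted p = 0.991) and the neutrophil chemokine gene Cxcl1 (2.07 ± 0.86 SE, unadjusted p under 0.05, edgeR adjusted p = 0.991). Gadd45a stood at 0.54 without SG 2 and at 1.14 with annotated isoforms alone. Cxcl1 was another gene of SG 2, with 40.0 FPKM there, 1.77 to 5.22 FPKM in the other SG livers and 0.531 to 5.83 FPKM in SHAM, and its log2 fold change was 0.69 without SG 2.

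No gene of the remaining lists passed either. Among MAP kinase phosphatases other than Dusp1, 3 of 5 were positive, with Dusp7 at 0.26 ± 0.17 and Dusp16 at -0.23 ± 0.13 (SE), with Dusp7 at 0.15 without SHAM 2 and Dusp16 at -0.11 without SHAM 3. Of 21 upstream kinases and factors 9 were positive; Srf, the factor that binds CArG boxes, stood at -0.15 ± 0.09 (SE), and the interleukin 6 receptor gene Il6r at -1.01 ± 0.37 (SE, unadjusted p under 0.05, edgeR adjusted p = 0.991), with 47.5 FPKM in SHAM 2 and -0.64 without that liver. Of 17 MYC partners and targets 7 were positive, including the nucleolar gene Npm1 (0.40 ± 0.15 SE, unadjusted p under 0.05, edgeR adjusted p = 0.991), while Nop58 stood at -0.25 ± 0.12 (SE).

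Of 19 genes of mRNA decay around Zfp36 and Btg2, 8 were positive, with the Btg2 relative Btg1 at 0.56 ± 0.25 (SE, unadjusted p under 0.05, edgeR adjusted p = 0.991) and the CCR4-NOT subunit Cnot9 at -0.12 ± 0.08 (SE). Btg1 had 56.1, 134, 70.2, 131 and 95.1 FPKM in SG 1 to SG 5, and 77.1, 57.6, 48.3, 57.3 and 70.4 FPKM in SHAM 1 to SHAM 5, with SG 2, SG 4 and SG 5 above every SHAM liver, the same livers as for Dusp1. Stress lists gave 6 positive of 13 heat shock genes, 1 of 10 integrated stress response genes and 4 of 10 p53 targets. The median of the integrated stress response genes ran from -0.43 to 0.07 with 1 library left out. The small heat shock protein gene Hspb1 stood at -1.07 ± 0.39 (SE, unadjusted p under 0.05, edgeR adjusted p = 0.991; -0.61 without SHAM 3) and Serpinh1, a collagen chaperone, at 0.60 ± 0.35 (0.26 without SG 2). The asparagine synthetase gene Asns stood at -1.19 ± 0.72, which was -0.35 without SHAM 4, and Atf4 at -0.22 ± 0.15, which was -0.14 without SHAM 3 and -0.13 without SHAM 4. Asns passed the filter only through the SHAM livers (mean 0.751 FPKM in SG and 1.57 FPKM in SHAM). Without the filter its log2 fold change was -1.21. The p53 targets Zmat3 and Mdm2 stood at -0.39 ± 0.19 and -0.29 ± 0.17 (SE), with Mdm2 at -0.19 without SHAM 5. Of 16 clock genes 5 were positive, with Clock at 0.30 ± 0.34 and Per1 at -0.43 ± 0.51 (SE). Clock was 0.16 without SHAM 2 or without SG 4, 0.17 without SG 5, 0.47 without SG 3 and 0.55 without SHAM 5. Per1 was -0.0669 without SHAM 2, -0.19 without SG 5, -0.22 without SG 2 and -0.72 without SG 3.

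Outside the members, the 5 tested genes whose log2(CPM + 1) over the 10 libraries was most like the mean of the 9 members were Ski (r = 0.97), RF00087 (0.93), AABR07029742 (0.93), AABR07073181 (0.92) and Smtn (0.92), chosen as the highest of 11130 genes. Ski encodes a corepressor of SMAD signalling and Smtn a protein of smooth muscle. Ski had 9.37, 12.1, 8.19, 9.94 and 13.5 FPKM in SG 1 to SG 5, and 9.25, 8.11, 8.16, 9.28 and 9.32 FPKM in SHAM 1 to SHAM 5, a narrow range in which SG 5 and SG 2 were highest. Its log2 fold change was 0.12 ± 0.11 (SE, edgeR adjusted p = 0.991). That of Smtn was 0.40 ± 0.23 (SE, edgeR adjusted p = 0.991), and those of RF00087, AABR07029742 and AABR07073181 were 0.30, 0.43 and 0.24. These 3 were -0.0630, 0.16 and 0.0272 without SG 2, and Ski was 0.0486. Without SG 2 the likeness was 0.94 for Ski, 0.92 for Smtn and 0.83 to 0.85 for the other 3. AABR07029742 passed the filter only through the SG livers (mean 1.31 FPKM in SG and 0.903 FPKM in SHAM). Without the filter its log2 fold change was 0.42.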

How the data were processed

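Total RNA of rat liver was depleted of ribosomal RNA, from about 5 µg with integrity numbers above 7.0. It was sequenced as 10 paired-end libraries with inserts near 300 bp, per the labels' protocols. Per the submitters' processing notes, cutadapt 1.9, FastQC 0.10.1, HISAT2 2.0.4, StringTie 1.3.4 and build Rnor_6.0 were used. The authors deposited 1 table of 51430 isoforms. Its FPKM values are scaled to isoform length and library size, per the file headers. Its estimated counts, as the authors deposited them, were checked to be whole numbers that follow FPKM multiplied by isoform length, so reads of overlapping isoforms were divided by estimate.

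Gene sums left out 7.9% to 9.99% of estimated counts. SG and SHAM were taken from the sample titles. The main test was edgeR 4.0.16 in R 4.3.3 (quasi-likelihood, rounded estimated counts, trimmed mean of M values, two-sided, Benjamini-Hochberg over 11139 genes, threshold 0.05). Alternatives were limma 3.58.1, DESeq2 1.42.0, other filters, pseudocounts, class codes and left-out libraries, and the fit was tested on simulated data. DESeq2 gave an adjusted p for 11087 genes. Relations across libraries used 100000 permutations in Python 3.11.15 with NumPy 2.4.6, two-sided, on log2(CPM + 1), adjusted over 36 member pairs (the pairs with Ier2, which has no gene sum, were left out) or the 9 relations with Per1. Genes named were the members, the 2 smallest p-values of each list and the 5 most alike genes; those with Per1 and Dbp, and the split of counts by isoform, were chosen after their values were seen. The members and lists were chosen with earlier results of these data known. Promoters are from RefSeq tables of build GRCr8, and coordinates of genes are those of the deposited table (Rnor_6.0).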

Additional observations from a re-analysis of the deposited data

Results flagged for a closer look

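Within-group values were searched for a library far from the other 4 of its group, by the gap to the nearest library over the whole range (above 0.71 for 5 libraries). Of 82 groups searched, 8 held such a library. For independent, normally distributed values chance gives about 1 in 20. The values here were FPKM and shares of counts, partly of genes that vary together, so 8 cannot be read as an excess. Among the members, Junb stood at 47.3 FPKM in SG 2 against 13.5 to 21.6 FPKM in the other SG livers. Egr1 stood at 17.7 FPKM in SG 1 against 4.93 to 7.22 FPKM in the other SG livers. In the sham group, Fos stood at 1.41 FPKM in SHAM 5 against 0.609 to 0.839 FPKM, and Jun at 35.9 FPKM in SHAM 4 against 24.2 to 26.4 FPKM. Class j isoforms held 75.2% of Dusp1 counts in SHAM 4, beside 69.4% to 71.1% in the 4 remaining sham livers. Of the related genes, Cxcl1 stood at 40.0 FPKM in SG 2 against 1.77 to 5.22 FPKM, Asns at 1.56 FPKM in SG 2 against 0.333 to 0.625 FPKM, and Hspb1 at 104 FPKM in SHAM 3 against 22.3 to 44.9 FPKM. SG 2 accounted for 3 of the 8.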

How the results depend on the processing

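Under 21 alternative fits 0 members passed, and 27 of the 36 named genes kept the sign of their log2 fold change wherever it could be fitted. The number of all genes called was 18 in DESeq2, 1 without both SG 2 and SHAM 5, and 0 to 1 with 1 library left out. Ranges with 1 library left out, where a sign turned, were -0.0674 to 0.52 for Junb, -0.27 to 0.92 for Atf3, -0.0503 to 0.55 for Myc, -0.0705 to 0.24 for Zfp36, -0.0875 to 0.29 for Btg2 and -0.0630 to 0.49 for RF00087. Without both SG 2 and SHAM 5, Junb stood at -0.0119, Myc at -0.14, Btg2 at -0.0314 and RF00087 at -0.0210. With annotated isoforms alone (class code =), Nop58 stood at 0.17, Mdm2 at 0.10 and Smtn at -1.51, since these sums leave out other isoforms. The number of member pairs that passed was 3, 5 on deviations from group means, and 0 to 4 with 1 library left out, where fewer libraries enter. The deviations were permuted over all 10 libraries, which takes no account of the group means removed, so the 5 can be too many. Deviations from group means of SG and SHAM libraries of the same replicate number had r from -0.274 to 0.142. Those of different numbers had r from -0.254 to 0.312. The numbers come from the sample titles, and this check does not settle whether they pair the libraries. With the replicate number as a replicate block edgeR called 0 genes, and Btg2 stood at -0.0197; Dusp1 and Egr1 had an unadjusted p under 0.05 there (edgeR adjusted p = 0.995 each). Depth limits Fos most, at 74 to 542 counts per library.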
